A study of Mus musculus with 16 samples.

Results

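The Hox genes encode homeodomain transcription factors that lie in 4 clusters, and they were read out of a bulk RNA sequencing table of mouse adrenal glands. Members were the rows whose Ensembl identifier maps in GENCODE M21 to a protein-coding gene named Hoxa, Hoxb, Hoxc or Hoxd followed by a number. This gave 39 genes of 54838 rows, with 11 in cluster A on chromosome 6, 10 in cluster B on chromosome 11, 9 in cluster C on chromosome 15 and 9 in cluster D on chromosome 2. The 16 libraries came from 16 individual mice aged 4 weeks, all of a mixed genetic background, in 4 groups of 4. Female controls and male controls were set beside females and males labelled Rspo1 GOF, a gain of function of the gene for R-spondin 1, which amplifies WNT signals at the cell surface. The promoter or Cre line behind that gain of function, and the genotype of the controls beyond the word control, are not given in the sources used here. The study asked about differences between the sexes in normal and Rspo1 GOF adrenals.

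Within a cluster the genes are numbered by paralogue group from 1 at the 3′ end to 13 at the 5′ end, and in the embryo low numbers are used towards the head and high numbers towards the tail. Genes of the same number in different clusters are paralogues, descended from 1 ancestral gene. HOX proteins often bind DNA together with TALE homeodomain cofactors of the PBX, MEIS and PKNOX families. In the fetal adrenal, HOXB9 with TALE partners is known to act on an enhancer of Nr5a1, which encodes steroidogenic factor 1, the master regulator of the steroid-making lineage. Here groups 1 to 3 are called anterior, 4 to 8 central and 9 to 13 posterior.

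Paralogue group 9 is taken up first, since its 4 members differ in level and moved in opposite directions in GOF adrenals of both sexes. Members of groups 4 and 5 also moved in opposite directions in males, as given below. The homeoboxes of the highest member of group 9, Hoxb9, and of Hoxc9, which fell, are the 180 bases that encode the DNA-binding domain and were read from the GENCODE M21 transcripts. Capitals mark each base that differs from Hoxb9, which is therefore all in lower case.
Hoxb9: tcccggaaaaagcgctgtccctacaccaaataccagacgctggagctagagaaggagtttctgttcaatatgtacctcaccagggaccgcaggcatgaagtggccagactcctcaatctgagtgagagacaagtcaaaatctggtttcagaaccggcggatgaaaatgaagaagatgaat
Hoxc9: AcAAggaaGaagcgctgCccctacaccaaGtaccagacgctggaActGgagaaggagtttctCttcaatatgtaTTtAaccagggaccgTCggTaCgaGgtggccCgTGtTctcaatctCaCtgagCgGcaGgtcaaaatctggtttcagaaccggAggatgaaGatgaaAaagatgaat
The Hoxc9 homeobox was 83.9% identical to that of Hoxb9. The longest run of identical bases between any transcripts of Hoxb9 and Hoxc9 was 50, and the longest between any members of different clusters was 52, between Hoxa6 and Hoxb4. The reads were 150 bases long, so a whole read could not lie within such a run.

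The RefSeq promoter table (GRCm38.p6) held 22 of the 39 genes, with 24 promoters, and none for Hoxb9 or Hoxc9. The 250 bases before the start site are shown for Hoxb4 (chr11:96318017-96318266, plus strand) and Hoxb8 (chr11:96281655-96281904, plus strand), of which Hoxb4 was called higher in male GOF and Hoxb8 in female GOF. They are set beside Hoxd8 (chr2:74704365-74704614, plus strand), which passed the threshold in neither sex. Capitals mark CTTTGA, a core of the motif bound by TCF and LEF factors at the end of the WNT pathway, searched on both strands with overlaps allowed.
Hoxb4: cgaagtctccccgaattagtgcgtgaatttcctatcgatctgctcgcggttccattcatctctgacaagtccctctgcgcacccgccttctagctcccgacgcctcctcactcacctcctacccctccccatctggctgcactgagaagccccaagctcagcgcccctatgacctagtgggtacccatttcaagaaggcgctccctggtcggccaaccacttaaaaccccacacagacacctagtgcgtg
Hoxb8: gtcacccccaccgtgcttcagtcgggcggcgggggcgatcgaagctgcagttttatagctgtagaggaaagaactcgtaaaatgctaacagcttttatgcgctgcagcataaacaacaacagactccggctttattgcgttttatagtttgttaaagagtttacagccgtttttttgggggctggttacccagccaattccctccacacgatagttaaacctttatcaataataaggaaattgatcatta
Hoxd8: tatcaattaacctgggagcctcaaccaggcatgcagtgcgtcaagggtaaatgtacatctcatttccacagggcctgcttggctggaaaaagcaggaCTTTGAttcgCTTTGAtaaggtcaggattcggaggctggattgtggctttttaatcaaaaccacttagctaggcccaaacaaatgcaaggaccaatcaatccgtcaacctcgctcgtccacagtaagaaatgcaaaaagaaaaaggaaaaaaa
The letters were absent from the Hoxb4 and Hoxb8 windows and present 2 times in that of Hoxd8. They occurred in 3 of the 24 Hox windows (12.5%), against 13.8% of 32851 windows of all genes. These 3 were windows of Hoxa10, Hoxd8 and Hoxd12. The windows of Hoxa2, Hoxa3, Hoxa6 and Hoxa7, which like Hoxd8 passed in neither sex, held none. The Hox windows held a median of 12.5 CG dinucleotides, against 6 over all genes.

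The levels separated the clusters. FPKM, the deposited scale of fragments relative to transcript length and library total, put 20 of the 39 genes at a group mean of at least 1. These were Hoxa3, Hoxa5, Hoxa6, Hoxa7 and Hoxa9 in cluster A, Hoxb2 to Hoxb9 without a gap in cluster B, Hoxc4, Hoxc5, Hoxc6, Hoxc8 and Hoxc9 in cluster C, and Hoxd8 and Hoxd9 in cluster D. All 4 members of group 9 reached 1 FPKM, and none of the 12 members of groups 10 to 13 did. Hoxa9 did so through female control 1 alone, which stood at 3.23 FPKM; without that library its female control mean was 0.445 FPKM. No count was found in any library for Hoxc11, Hoxc12, Hoxd1, Hoxd4 and Hoxd12, where 3 counts are the upper limit that a count of 0 allows.

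Hoxb9, at the 5′ edge of the expressed part of cluster B, had the highest level of all members in FPKM. Its group means were 106 ± 6.79 FPKM in female controls, 173 ± 22.3 in female GOF, 107 ± 22.1 in male controls and 181 ± 9.40 in male GOF (SD, n = 4). It made up 22.95% to 35.5% of the summed FPKM of the 39 genes in a library. Hoxb8 came next by the mean over all libraries, with group means of 59.7 to 108 FPKM, then Hoxb6 with 41.7 to 85.8 FPKM and Hoxb7 with 50.2 to 74.2 FPKM. The ranges of these last 3 overlapped, so their order is not firm. Below them stood Hoxc6 at 35.8 to 50.4 FPKM, Hoxd8 at 16 to 21.8 FPKM, Hoxc8 at 14.3 to 21 FPKM and Hoxa7 at 8.38 to 17.4 FPKM.

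Cluster B as a whole carried most of the Hox message and carried more of it in GOF adrenals. Its summed level was 328 ± 16.1 FPKM in female controls and 480 ± 30.7 FPKM in female GOF (SD, n = 4). Male controls had 281 ± 42.7 FPKM and male GOF 430 ± 11.7 FPKM. No GOF library overlapped the controls of its sex, the lowest GOF sum being 446 FPKM in females and 419 FPKM in males, and the highest control sum 352 and 318 FPKM. As a share of all Hox FPKM, cluster B went from a mean of 74.7% to 81.5% in females and from 68.5% to 78.0% in males. Cluster A went from 5.35% to 2.69% in females and from 8.06% to 4.68% in males, and cluster D from 4.91% to 2.86% and from 5.97% to 3.48%. A share also depends on the level of the other clusters. The summed level of A went from 23.5 to 15.9 FPKM in females and from 32.7 to 25.9 FPKM in males, where the groups overlapped. That of D went from 21.6 to 16.8 FPKM and from 24.4 to 19.2 FPKM, with overlap in each sex. Female control 1, which carried kidney transcripts, had the highest female sum in both, 29.99 FPKM in cluster A and 29.1 FPKM in cluster D, against at most 21.8 and 20.04 FPKM in the other female controls. Without it the female control shares were 4.89% for cluster A, 75.9% for B and 4.37% for D. Cluster C held 12.9% to 17.5% in the 4 groups. Its share was lower in GOF in each sex, while its sum went from 66.0 to 76.2 FPKM in females and from 71.2 to 76.4 FPKM in males, with overlap. These sums and shares are descriptions and were not tested.

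**Figure D1:**
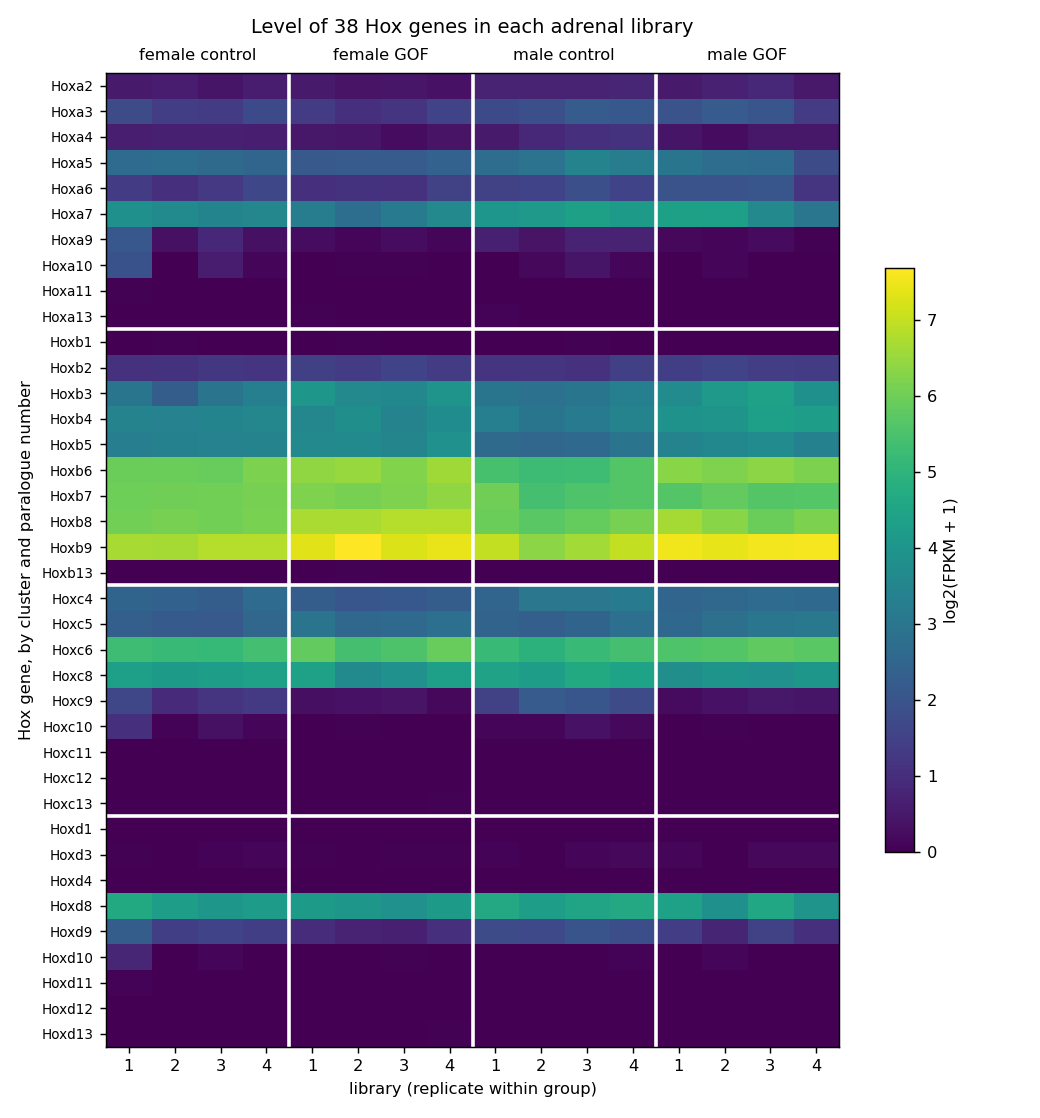
Level of the Hox genes shown (rows, 38 of the 39, by cluster and paralogue number) in the 16 libraries (columns, by group), as log2(FPKM + 1), lighter being higher. The block from Hoxb6 to Hoxb9 is the lightest, except that Hoxc6 lies above Hoxb7 in male GOF 3 and 4, and groups 10 to 13 are dark except for Hoxa10, Hoxc10 and Hoxd10 in female control 1 and, fainter, Hoxa10 and Hoxc10 in female control 3 and male control 3.

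Library totals ran from 31275146 to 43003968 counts, and Rspo1 checked the labels, with 3.20 to 48.2 counts scaled to the library total (CPM) in the 8 control libraries and 354 to 972 CPM in the 8 GOF libraries. The summed level of 8 markers of steroid-making cortex was 33127 to 53153 CPM over all libraries and none of the markers was at 0. Some libraries stood apart: 12 kidney tubule markers summed to 1235 CPM in female control 1, then 204 CPM in female control 3, and to at most 3.48 CPM in every other library. Of the 12, Umod and Kap were at 0 in all GOF libraries. A list of 12 liver markers reached 9575 CPM in male control 2 and at most 68.7 CPM in any other library. Calls that were lost without these libraries are named with the results.

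For GOF against control, counts were compared with edgeR's quasi-likelihood test over all 18214 genes that passed a filter on low counts, with p-values adjusted by Benjamini-Hochberg and a threshold of 0.05. The filter kept 23 of the 39 Hox genes, 8 in cluster A, 8 in B, 5 in C and 2 in D, and left out 16, among them all 12 of groups 10 to 13. In females 11 of the 23 passed the threshold (47.8%, against 39.6% of all genes tested). Of these, 6 rose (19% of all genes did) and 5 fell (20.6% of all genes did). In males 13 of the 23 passed (56.5%, against 36.9% of all genes tested), with 6 higher (15.2% of all genes) and 7 lower (21.8% of all genes). The median log2 change of the 23 was -0.26 in females and -0.21 in males, beside 0.05 and 0.01 over all genes. In 12 of the 23 the female groups did not overlap, against 37.8% of all genes tested, and in 11 of the 23 the male groups did not, against 33.1% of all genes tested. Without female controls 1 and 3 and male control 2, 6 of the 11 female calls held, those of Hoxa4, Hoxa9, Hoxc4, Hoxc5 and Hoxc6 being lost, and 11 of the 13 male calls, those of Hoxa5 and Hoxc6 being lost.

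The sign of the change is given by cluster as a description. In cluster B all 8 tested genes had a positive change in females and 7 of 8 in males, where Hoxb7 was negative here and positive with limma on FPKM or without male control 1, with 4 of 8 called higher in females (19% of all genes were), 5 of 8 in males (15.2% of all genes) and none lower. In cluster A 7 of 8 genes had a negative change in each sex (8 of 8 in males with voom), with 2 of 8 called lower in females (25%, near the 20.6% of all genes), 3 of 8 in males (37.5%, beside 21.8%) and none higher. Cluster C was mixed: Hoxc6 rose and Hoxc4 and Hoxc9 fell in both sexes, Hoxc5 rose in females and Hoxc8 fell in males. In cluster D both tested genes had negative changes, and Hoxd9 fell in both sexes. Called in both sexes were Hoxb3, Hoxb6, Hoxb9 and Hoxc6 as higher and Hoxa4, Hoxa9, Hoxc4, Hoxc9 and Hoxd9 as lower, which makes 9 of 23 genes (21.6% of all genes tested were called in 1 direction in both sexes), and none was called in opposite directions. The 2 comparisons share no library, and 20 of the 23 genes had the same sign in both, as did 74.9% of all genes tested.

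**Figure D2:**
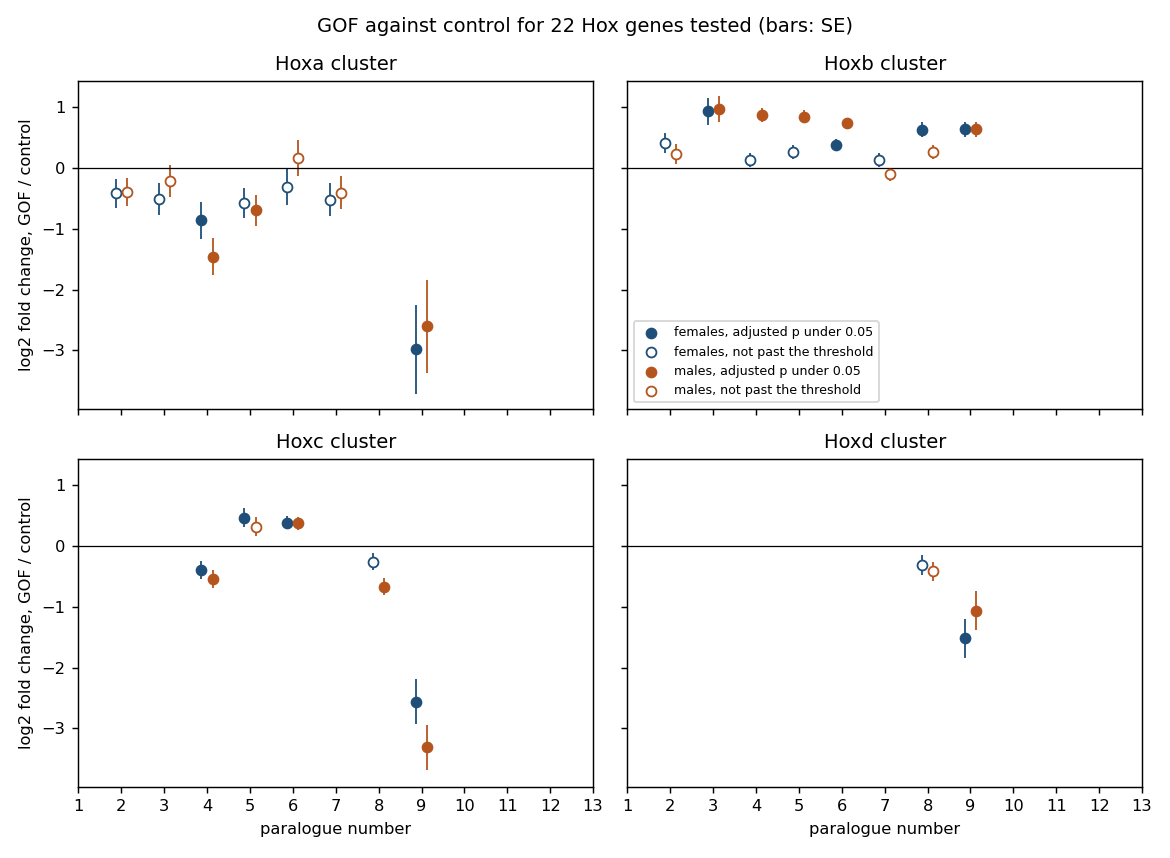
Fitted log2 fold change of GOF against control (y axis, bars are standard errors) by paralogue number (x axis) for 22 of the 23 Hox genes tested, in 1 panel per cluster, females in blue and males in orange, filled where the adjusted p is under 0.05. Cluster B lies above 0 except Hoxb7 in males (above 0 with limma on FPKM or without male control 1), and the lowest points of the other clusters are Hoxa9, Hoxc9 and Hoxd9 at position 9 and Hoxa4 in males.

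Paralogue group 9 split by cluster. In males groups 4 and 5 did so too. The log2 changes were 0.87 for Hoxb4, -1.46 for Hoxa4 and -0.54 for Hoxc4, and 0.85 for Hoxb5 and -0.69 for Hoxa5. Hoxb9 stood at 254, 254, 285 and 275 CPM in the female controls and at 387, 488, 377 and 414 CPM in female GOF. The male controls had 317, 205, 240 and 302 CPM and male GOF 424, 392, 410 and 434 CPM. Every GOF library was above every control of its sex. The log2 change was 0.64 ± 0.121 (SE) in females and 0.64 ± 0.121 in males, with adjusted p of 0.000777 and 0.000787, and both calls held in every alternative fit.

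Hoxc9, the paralogue on chromosome 15, moved the other way. It stood at 3.23, 1.39, 2.0 and 2.26 CPM in female controls and at 0.380, 0.458, 0.478 and 0.172 CPM in female GOF. Male controls had 2.95, 5.68, 4.92 and 3.51 CPM and male GOF 0.239, 0.429, 0.551 and 0.483 CPM. The groups were far apart in both sexes, with log2 changes of -2.57 ± 0.371 and -3.31 ± 0.376 and adjusted p of 9.49e-05 and 9.71e-06. Both calls held in every alternative fit that tested the gene.

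Hoxd9, on chromosome 2, fell less. Its female control values were 8.38, 3.81, 4.28 and 3.70 CPM, against 2.08, 1.37, 1.31 and 2.29 CPM in female GOF. In males the controls had 5.45, 5.0, 6.46 and 5.47 CPM and GOF had 3.39, 1.51, 3.66 and 2.11 CPM. The groups did not overlap, and the changes were -1.52 ± 0.325 and -1.06 ± 0.319 on the log2 scale with adjusted p of 0.00198 and 0.0171. Female control 1 stood far above the other 3 female controls, and without it the female change was -1.16 with an adjusted p of 0.00740; without female control 3 and male control 2 as well it was -1.09 (adjusted p = 0.033). The call in males did not survive leaving out male GOF 4 (change -0.98, adjusted p = 0.05).

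Hoxa9, on chromosome 6, is known for its part in blood stem cells and leukaemia and had the lowest mean FPKM of group 9 in all 4 groups (1.14, 0.149, 0.57 and 0.0981 in the order female control, female GOF, male control, male GOF). It stood at 4.99, 0.420, 1.26 and 0.411 CPM in female controls and at 0.292, 0.160, 0.299 and 0.143 CPM in female GOF. Male controls had 0.954, 0.527, 1.02 and 1.01 CPM and male GOF 0.186, 0.114, 0.225 and 0.0302 CPM. The log2 change was -2.98 ± 0.736 in females and -2.60 ± 0.764 in males, with adjusted p of 0.00522 and 0.0153. The female value rests on female controls 1 and 3, the libraries with kidney transcripts. Without female control 1 it was -1.64 and the call held (adjusted p = 0.0289). With both and male control 2 left out it was -0.90 with an adjusted p of 0.241. With limma on log2(FPKM + 1) and no filter the call was lost in both sexes, at -0.70 (adjusted p = 0.106) and -0.51 (adjusted p = 0.228).

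**Figure D3:**
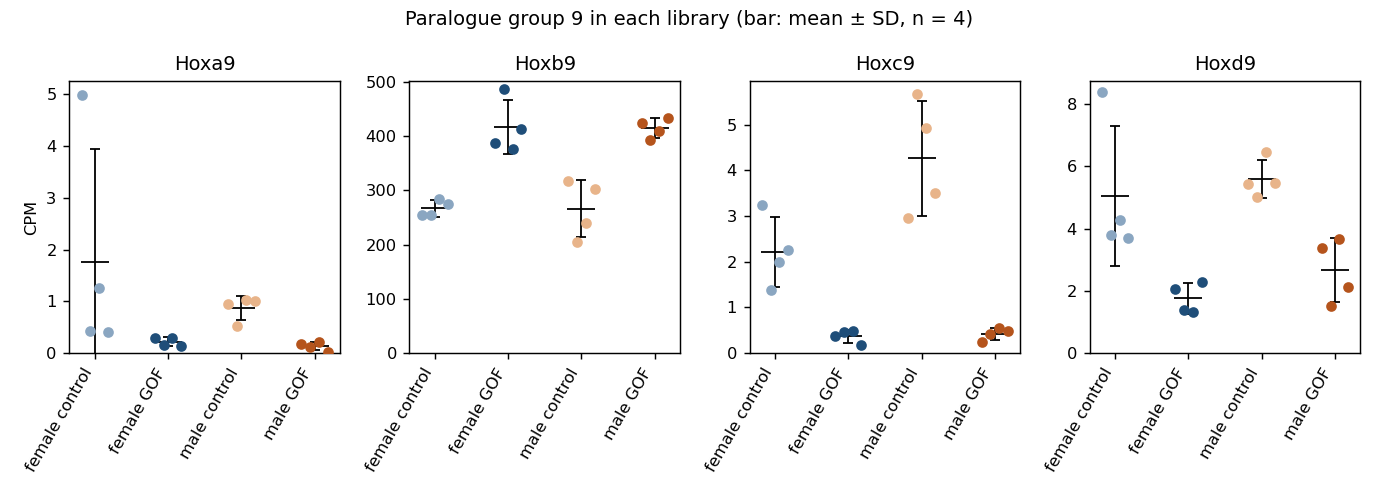
CPM of Hoxa9, Hoxb9, Hoxc9 and Hoxd9 (y axes start at 0 and differ in scale) in each library of the 4 groups, with the mean and SD as a bar (n = 4); the lower end of the bar for Hoxa9 in female controls lies below 0 and is cut off. Hoxb9 is higher in GOF in both sexes, and the other 3 are lower.

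Of the central genes of cluster B, Hoxb6 rose in both sexes, Hoxb4 and Hoxb5 in males and Hoxb8 in females. Hoxb6 had 103, 107, 100 and 117 CPM in female controls and 137, 144, 123 and 155 CPM in female GOF. Male controls had 73.8, 64.6, 64.4 and 78.5 CPM and male GOF 126, 115, 122 and 109 CPM. The groups did not overlap, and the log2 changes of 0.39 ± 0.0843 and 0.75 ± 0.0848 had adjusted p of 0.00214 and 1e-05.

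Hoxb4, a regulator known from the expansion of blood stem cells, was called higher in male GOF. In females the controls had 25.9, 25.9, 27.3 and 28.2 CPM and GOF had 27.2, 33.5, 25.4 and 31.4 CPM, which overlap. Male controls had 23.8, 18.7, 21.1 and 25.3 CPM and male GOF 36.1, 36.2, 45.3 and 44.9 CPM, which do not. The male change was 0.87 ± 0.115 (adjusted p = 3.85e-05), the female change 0.13 ± 0.115 (adjusted p = 0.377); the test of the difference between the sexes, given with the interactions, passed with all libraries and not without female control 1 and male control 2. Hoxb5, next to it, had 20.9, 23.4, 23.6 and 23.1 CPM in female controls and 26.1, 26.7, 24.3 and 32.2 CPM in female GOF. Its male controls had 12.9, 11.6, 12.4 and 15.6 CPM and male GOF 22.4, 25.1, 26.0 and 20.9 CPM. Male GOF thus stood near the female levels, and the change was 0.85 ± 0.111 (adjusted p = 3.45e-05), against 0.26 ± 0.110 (adjusted p = 0.0688) among females.

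Hoxb8 was called in females. It stood at 99.1, 107, 101 and 104 CPM in female controls and at 153, 152, 168 and 166 CPM in female GOF. Male controls had 95.2, 80.8, 87.3 and 99.4 CPM and male GOF 142, 112, 82.7 and 99.8 CPM. The female groups were clear of each other and the male groups overlapped, with changes of 0.63 ± 0.123 (adjusted p = 0.000951) and 0.27 ± 0.122 (adjusted p = 0.0997). The test of that difference between the sexes gave -0.37 ± 0.173 with an adjusted p of 0.251. Hoxb7 had 52.9 to 57.4 CPM in female controls, 56.1 to 68.6 CPM in female GOF, 36.0 to 55.7 CPM in male controls and 36.7 to 45.0 CPM in male GOF, and passed in neither GOF comparison.

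Among the anterior genes, Hoxb3 was the only one called in a GOF comparison. It had 11.1, 6.23, 11.1 and 14.2 CPM in female controls and 24.3, 17.2, 17.3 and 22.7 CPM in female GOF. Male controls had 11.2, 10.4, 11 and 13.7 CPM and male GOF 17.9, 25.1, 28.1 and 19.8 CPM. Levels were thus higher without overlap, with changes of 0.93 ± 0.215 and 0.97 ± 0.215 and adjusted p of 0.00331 and 0.00260. In the annotation 52.9% of the exonic bases of Hoxb3 are shared with Hoxb3os on the opposite strand, and the strand setting of the counting is not given in the sources used here, so reads within the shared part cannot be assigned to 1 of the 2 genes. Hoxb2 had 3.03 CPM in female controls and 4.04 in female GOF (adjusted p = 0.057), and 3.30 and 3.86 in males (adjusted p = 0.298).

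**Figure D4:**
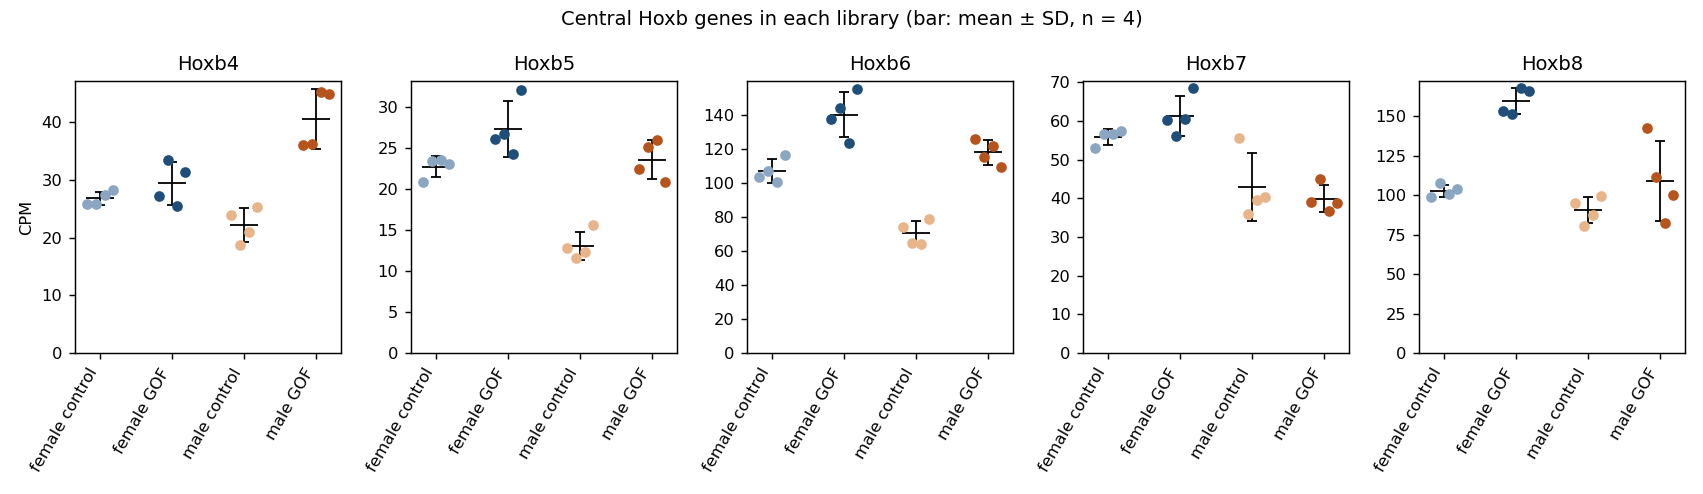
CPM of Hoxb4 to Hoxb8 (y axes start at 0 and differ in scale) in each library of the 4 groups, with the mean and SD as a bar (n = 4). GOF libraries stand clear of the controls for Hoxb5 and Hoxb6 in both sexes (Hoxb5 in females by little), for Hoxb4 in males and for Hoxb8 in females, while Hoxb7 overlaps in both sexes.

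In cluster C, Hoxc6 rose with the cluster B genes. It had 39.4, 37.6, 36.0 and 41.5 CPM in female controls and 56.1, 41.1, 46.3 and 58.2 CPM in female GOF, with 37.6, 31.1, 37.3 and 41.6 CPM in male controls and 45.6, 46.6, 50.2 and 48.9 CPM in male GOF. The female groups overlapped slightly and the male groups did not, and the changes were 0.38 ± 0.107 and 0.37 ± 0.107 with adjusted p of 0.0110 and 0.0136. The female call was lost without female GOF 4 and the male call without male control 2, with changes of 0.27 and 0.30. Hoxc5 rose in females, from 7.28, 6.59, 6.37 and 8.69 CPM to 11.9, 8.47, 9.23 and 10.4 CPM, which overlap slightly. The change was 0.47 ± 0.158 with an adjusted p of 0.0289. Male controls of Hoxc5 had 8.25, 7.49, 8.25 and 10.4 CPM and male GOF 8.72, 10.5, 11.4 and 12.5 CPM, which overlap as well.

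Hoxc8 and Hoxc4 went down. Hoxc8 had 43.7, 39.5, 50.8 and 42.3 CPM in male controls and 25.6, 29.3, 25.6 and 30.5 CPM in male GOF, a change of -0.67 ± 0.142 with an adjusted p of 0.00204. In females it had 40.0, 37.4, 39.2 and 41.7 CPM in controls and 41.0, 24, 28.4 and 39.1 CPM in GOF, which overlap and did not pass. Hoxc4 had 9.62, 9.17, 8.16 and 11.2 CPM in female controls and 7.78, 6.37, 6.99 and 7.83 CPM in female GOF. Its male controls had 10.2, 15.6, 15.2 and 16.1 CPM and male GOF 9.33, 9.66, 10.2 and 9.91 CPM, so that 1 control lay at the GOF level. The changes of Hoxc4 were -0.40 ± 0.147 and -0.54 ± 0.146, with adjusted p of 0.0430 and 0.00941. With limma on log2(FPKM + 1) and no filter the male call was lost, at -0.35 (adjusted p = 0.0759). The female call of Hoxc4 was lost in 7 of 16 fits with 1 library left out (female controls 1, 2 and 4, female GOF 1 to 3, male control 3), with changes of -0.43 to -0.31. That of Hoxc5 was lost in 8 of 16 (female controls 1 to 3, female GOF 1, 3 and 4, male GOF 2 and 3), with 0.38 to 0.47. Of 13 other alternative fits, 8 lost the female call of Hoxc4 and 4 that of Hoxc5.

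Cluster A was low, and its called genes beside Hoxa9 were Hoxa4 in both sexes and Hoxa5 in males. Hoxa5, a regulator of lung and axial development, had 11.1, 12.9, 19.0 and 15.8 CPM in male controls and 12.6, 10.2, 9.26 and 4.26 CPM in male GOF, which overlap. In females the controls had 10.4, 11.6, 10.5 and 8.86 CPM and GOF had 6.34, 6.66, 6.81 and 7.98 CPM, which do not overlap, though the change did not pass. The male change of -0.69 ± 0.251 passed (adjusted p = 0.0413) and was lost in 6 of 16 fits with 1 library left out (female control 3, male controls 2 to 4, male GOF 3 and 4), at -0.75 to -0.47. This male call was also lost in 9 of 13 other alternative fits, among them those with limma on FPKM. Hoxa4 had 0.961 ± 0.0554 CPM in female controls and 0.526 ± 0.143 in female GOF, and 1.43 ± 0.485 and 0.519 ± 0.138 CPM in males (SD, n = 4). Its changes were -0.86 ± 0.309 and -1.46 ± 0.309 with adjusted p of 0.0382 and 0.00196, and the female call was lost without any 1 of the 4 female controls or female GOF 3 or 4, at -0.89 to -0.73. The female call of Hoxa4 was also lost in 7 of 13 other alternative fits. Of its exonic bases 16% are shared with a gene on the opposite strand. Hoxa2, Hoxa3, Hoxa6 and Hoxa7, and Hoxd8 in cluster D, passed in neither sex.

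Markers of other cells of the gland moved with the GOF comparisons. The summed level of 8 medulla markers was 4749 to 10839 CPM in female controls and 198 to 768 CPM in female GOF, and 7588 to 11491 CPM and 395 to 883 CPM in males. For 8 fat markers the ranges were 1838 to 2338 CPM and 476 to 937 CPM in females and 2353 to 4685 CPM and 373 to 471 CPM in males. For 8 markers of capsule and stroma they were 1045 to 1260 CPM and 264 to 648 CPM in females and 1207 to 4598 CPM and 601 to 715 CPM in males. For 6 Schwann cell markers they were 22.9 to 84.998 CPM and 7.25 to 10.2 CPM in females and 37.6 to 204 CPM and 8.41 to 10.2 CPM in males, with all 6 called lower in each sex. Blood cell markers went the other way: the sum of 8 was 25.5 to 36.5 CPM in female controls and 54.7 to 65.4 CPM in female GOF, and 42.5 to 53.02 CPM and 68.2 to 172 CPM in males. Of these 8, 5 were called higher and none lower in females, and 3 higher and 1 lower in males. Over all genes tested 19% were called higher and 20.6% lower in females, and 15.2% and 21.8% in males. For 7 endothelial markers the ranges were 523 to 643 CPM and 471 to 571 CPM in females and 395 to 863 CPM and 703 to 893 CPM in males, which overlap. In males 2 of the 7, Egfl7 and Emcn, were called higher, and in females none was called. None of the markers of these lists was at 0 in every library of a group. The cortex list covered 39782 to 49953 CPM in female controls and 45713 to 53153 CPM in female GOF, and 33127 to 52444 CPM and 35109 to 48060 CPM in males. Of its 8 markers, Nr5a1 and Hsd3b1 were called higher and Star lower in each sex. The part of the cell type markers in the Hox changes was not tested, and in bulk tissue fewer cells of a type and less RNA per cell cannot be told apart.

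The posterior genes of groups 10 to 13 were near 0 in the adrenal, with more counts in 3 control libraries, of which female controls 1 and 3 carried kidney transcripts and male control 3 did not stand out in them. These 12 genes together had 320 counts in female control 1, 54 in female control 3, 38 in male control 3 and at most 17 in any other library. Most of the 320 came from Hoxa10 with 183 counts, Hoxc10 with 76 and Hoxd10 with 54, genes known for patterning the lumbar and urogenital region. Hoxa11 and Hoxd11, which act together in kidney development, had 3 and 4 counts in female control 1 and 0 in every other library. Female control 1 was also the highest library for Hoxa9 and Hoxd9. In female control 3 Hoxa10 had 31 counts and Hoxc10 had 17, and in male control 3 they had 20 and 18, although its kidney markers summed to 2.38 CPM. The part of kidney tissue in these counts was not tested.

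**Figure D5:**
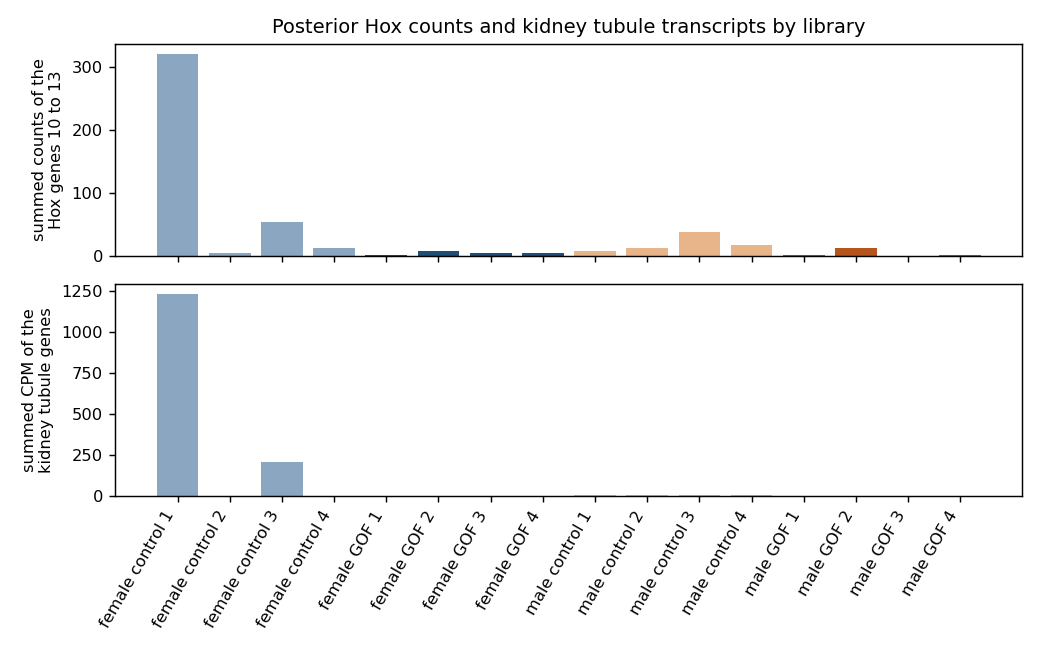
Summed counts of the 12 Hox genes of groups 10 to 13 (upper panel) and summed CPM of 12 kidney tubule markers (lower panel) in each of the 16 libraries. Female control 1 is the highest in both, with 320 counts and 1235 CPM, and female control 3 is the second in both, with 54 counts and 204 CPM; male control 3 has 38 counts and 2.38 CPM.

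Between the sexes, 4 of the 23 genes passed in controls (17.4%, against 23.4% of all genes tested), and 3 of them were neighbours in cluster B. Lower in males, as log2 differences, were Hoxb5 at -0.79 ± 0.111 (adjusted p = 0.000165), Hoxb6 at -0.60 ± 0.0846 (adjusted p = 0.000171) and Hoxb7 at -0.38 ± 0.114 (adjusted p = 0.0255), where 9.89% of all genes were lower. The control values of Hoxb5 and Hoxb6 given above do not overlap between the sexes. Hoxb7 had 52.9, 56.6, 56.6 and 57.4 CPM in female controls and 55.7, 36.0, 39.6 and 40.3 CPM in male controls, so that male control 1 lay within the female range, and its call was lost without female control 2, 3 or 4 or male control 2, 3 or 4, at -0.38 to -0.31. Hoxc4 was higher in males by 0.58 ± 0.146 (adjusted p = 0.0110), where 13.5% of all genes were higher. With female control 1 and male control 2 left out, the calls of Hoxb5 and Hoxb6 held and those of Hoxb7 and Hoxc4 did not, at differences of -0.33 (adjusted p = 0.084) and 0.54 (adjusted p = 0.0527). The same was seen with the range of the mouse numbers in the labels as a covariate, where 1 range alone holds controls of both sexes. There Hoxb7 was at -0.32 (adjusted p = 0.222) and Hoxc4 at 0.45 (adjusted p = 0.211). In a fit of only the groups compared the adjusted p was 0.0569 and 0.055.

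In GOF adrenals 7 of the 23 passed (30.4%, against 29.6% of all genes tested), 4 higher in males (13.3% of all genes) and 3 lower (16.3% of all genes). Hoxb7 had 60.2, 56.1, 60.4 and 68.6 CPM in female GOF and 39.1, 45.0, 36.7 and 38.9 CPM in male GOF, without overlap, a difference of -0.62 ± 0.114 with an adjusted p of 0.000956. Hoxb8 differed by -0.55 ± 0.122 (adjusted p = 0.00360) and Hoxb6 by -0.25 ± 0.0842 (adjusted p = 0.0375). Hoxb4, in contrast, was higher in males by 0.47 ± 0.114 (adjusted p = 0.00665). Of the other 3 that were higher in males, Hoxa3 had 2.46, 1.79, 2.03 and 3.14 CPM in female GOF and 4.59, 5.77, 4.76 and 2.42 CPM in male GOF. Hoxa6 had 0.906, 1.03, 0.986 and 1.63 CPM in female GOF and 2.47, 2.43, 2.5 and 1.06 CPM in male GOF. In both genes male GOF 4 lay within the female range; the differences were 0.90 ± 0.266 (adjusted p = 0.0193) for Hoxa3, 0.89 ± 0.301 (adjusted p = 0.0362) for Hoxa6 and 0.43 ± 0.147 (adjusted p = 0.0368) for Hoxc4. With voom and sample quality weights Hoxa3 was at 0.50 (adjusted p = 0.19) and Hoxa6 at 0.44 (adjusted p = 0.328), and without female controls 1 and 3 and male control 2 the calls of Hoxa6 (adjusted p = 0.0636) and Hoxc4 (adjusted p = 0.0533) were lost. Of the exonic bases of Hoxa3 25.4% are shared with genes on the opposite strand, among them Hoxaas2, which was itself higher in male GOF than in female GOF by 1.10 ± 0.384 (adjusted p = 0.0417). In controls Hoxa3 had 4.04, 2.84, 2.74 and 3.79 CPM in females and 3.94, 4.62, 6.24 and 5.49 CPM in males, and Hoxa6 had 1.40, 1.0, 1.32 and 1.91 CPM in females and 1.72, 1.76, 2.41 and 1.66 CPM in males. None of the 7 calls held in every alternative fit: all were lost with the range of the mouse numbers in the labels as a covariate, where 1 range alone holds GOF mice of both sexes. In that fit the differences were -0.47 for Hoxb7 (adjusted p = 0.103), -0.41 for Hoxb8 (adjusted p = 0.194), -0.21 for Hoxb6 (adjusted p = 0.325) and 0.41 for Hoxb4 (adjusted p = 0.0996), and 0.93 for Hoxa3, 1.33 for Hoxa6 and 0.32 for Hoxc4 (adjusted p of 0.153, 0.0841 and 0.427). With 1 library left out, Hoxa3 was lost without female GOF 2 or 3 or male GOF 2 (0.75 to 0.84), Hoxa6 without any of 1 to 3 in either GOF group (0.80 to 0.86), Hoxb6 without female GOF 1, 2 or 4 or male GOF 2 to 4 (-0.26 to -0.19), and Hoxc4 without female GOF 2 or 3 or male GOF 2 to 4 (0.39 to 0.45).

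Cell type markers moved with the sex comparisons too. In GOF adrenals all 7 endothelial markers were higher in males (471 to 571 CPM summed in females and 703 to 893 CPM in males), 5 of 8 capsule and stroma markers were higher, and of 8 cortex markers 4 were lower and 1 higher. Of 8 blood cell markers 2 were higher and 4 lower there, and 3 of 8 fat markers were lower. Over all genes tested, 13.3% were higher in male GOF than in female GOF and 16.3% lower. In controls, 9 of 12 liver, 5 of 8 capsule and stroma and 3 of 8 blood cell markers were higher in males. So were 3 of 6 Schwann cell, 2 of 6 tested muscle, 2 of 8 fat and 1 of 8 medulla markers. Both tested kidney markers were lower, and 1 cortex marker was higher and 1 lower. Of all genes tested 13.5% were higher and 9.89% lower. In male control 2 the liver sum was 9575 CPM and the muscle sum 109 CPM. In the other controls these were at most 58.6 and 9.46 CPM. Kidney markers summed to 1235 and 204 CPM in female controls 1 and 3 and to 0.742 and 0.851 CPM in female controls 2 and 4. In male controls they summed to 1.93 to 3.48 CPM. The part of the cell type markers in the sex differences was not tested.

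The interaction asks whether the GOF change differed between the sexes, and 2 of the 23 genes passed (8.70%, against 4.21% of all genes tested). Both lie next to each other in cluster B and had the larger rise in males, where 1.59% of all genes had a positive interaction past the threshold and 2.61% a negative one. The male change exceeded the female change by 0.74 ± 0.162 on the log2 scale for Hoxb4 (adjusted p = 0.0210) and by 0.58 ± 0.156 for Hoxb5 (adjusted p = 0.0475). Without female control 1 and male control 2 the adjusted p was 0.0510 for Hoxb4 and 0.0964 for Hoxb5, with differences of 0.68 and 0.57, and without female control 3 as well it was 0.127 and 0.208. The call of Hoxb5 was lost in 13 of 16 fits with 1 library left out, at 0.53 to 0.63, and held without female GOF 4, male control 4 or male GOF 4.

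Noncoding genes of the clusters were followed as a list of 17, of which 16 were in the files and 8 passed the filter. In females 2 of the 8 rose (19% of all genes did) and in males 4 of the 8 (15.2% of all genes), none fell, and all lie in cluster B. The median log2 change of the 8 was 0.44 in females and 0.60 in males, beside 0.05 and 0.01 over all genes. Hoxb5os, an antisense neighbour of Hoxb5, had 14.5 ± 1.25 CPM in female controls and 26.1 ± 2.78 in female GOF, and 12.5 ± 1.53 and 27.2 ± 0.798 CPM in males (SD, n = 4). Its changes were 0.84 ± 0.103 and 1.12 ± 0.104 with adjusted p of 2.55e-05 and 1.91e-06, and 3.59% of the exonic bases of Hoxb5 are shared with it. Hoxb3os rose in males, by 0.98 ± 0.299 (adjusted p = 0.0185); the call was lost without male control 3 or male GOF 3, at 0.88 and 0.82. The row of Mir196a-1, upstream of Hoxb9, had 5.35 ± 1.69 CPM in female controls against 10.7 ± 2.47 CPM in GOF, and 5.62 ± 0.956 against 13.5 ± 1.93 CPM among males, with changes of 1.0 ± 0.234 and 1.26 ± 0.235 and adjusted p of 0.00374 and 0.000729. That of Mir10a, between Hoxb4 and Hoxb5, went from 0.207 ± 0.157 to 0.867 ± 0.202 CPM in males, a change of 2.03 ± 0.496 with an adjusted p of 0.00520. Libraries of long RNA count fragments of the precursor or of RNA that runs through the locus, so these rows do not measure the mature microRNA.

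The mature microRNAs of these loci are shown because Hox messages are among their known targets, with the seed (bases 2 to 8) in capitals, from RefSeq (GRCm38.p6).
miR-196a-5p: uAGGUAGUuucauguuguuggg
miR-10a-5p: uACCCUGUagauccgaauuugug
The first comes from Mir196a-1 at chr11:96265187-96265208 (plus strand) and the second from Mir10a at chr11:96317186-96317208 (plus strand). Among the transcripts of 21877 protein-coding genes, Hoxb8 alone held a stretch complementary to at least 21 of the 22 bases of miR-196a-5p, and the capital marks the base that is not the Watson-Crick complement.
Hoxb8 site: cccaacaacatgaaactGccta
The Hoxb8 message, whose values are given above, was higher in female GOF and overlapped between the male groups.

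The TALE cofactors of HOX proteins were all detected, and 1 of the 9 stood out in size. Pbx3 had 122 to 167 CPM in female controls, 471 to 548 CPM in female GOF, 143 to 204 CPM in male controls and 394 to 552 CPM in male GOF. The groups were clear of each other, and the female change was 1.82 ± 0.131 (adjusted p = 5.3e-07), the male change 1.40 ± 0.130 (adjusted p = 1.92e-06). Pknox2 fell in both sexes, with 4.59 ± 0.714 and 1.85 ± 0.315 CPM in female controls and GOF, 5.47 ± 0.189 and 2.44 ± 0.645 CPM in those of males, and adjusted p of 0.000160 and 0.000357. In females Meis3 rose by 0.54 ± 0.137 (adjusted p = 0.00590) and Pknox1 by 0.24 ± 0.0820 (adjusted p = 0.0317), the latter lost in 10 of 16 fits with 1 library left out. The list thus had 3 higher and 1 lower of 9 in females and 2 higher and 1 lower of 9 in males, with medians of 0.24 and -0.01 beside 0.05 and 0.01 over all genes. Called in either direction were 4 of 9 and 3 of 9, near the 39.6% and 36.9% of all genes tested.

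Polycomb proteins keep silent Hox genes closed, and trithorax proteins keep active ones open. Of 15 Polycomb genes 6 rose and none fell in females, with Ezh2 at 0.94 ± 0.243 (adjusted p = 0.00724), Cbx2 at 0.68 ± 0.124 (adjusted p = 0.000563) and Pcgf2 at 0.60 ± 0.130 (adjusted p = 0.00208), and 2 rose and 2 fell in males. That is 6 of 15 and 4 of 15 called, beside 39.6% and 36.9% of all genes tested. With 1 library left out, 4 to 6 of the 6 female calls held, fewest without female GOF 2, and 2 to 4 of the 4 male calls, fewest without male control 3 or 4; Suz12 was lost in 9 of 16 fits in females and Eed in 13 of 16 in males. In males Ring1 rose by 0.67 ± 0.0788 (adjusted p = 1.37e-05). Of 7 trithorax genes and H3K27 demethylases, 6 rose in females (19% of all genes did) and 2 in males (15.2% of all genes), and none fell. The female count rests on small changes: without female control 3 Kmt2a, Men1 and Kdm6a were lost and 3 of the 6 calls held, those of Ash2l, Rbbp5 and Wdr5, which held without any 1 library. Men1 was lost in 11 of 16 such fits, Kdm6a in 8 and Kmt2a in 4. Their medians were 0.21 and 0.06 for the Polycomb list and 0.26 and 0.13 for the trithorax list, beside 0.05 and 0.01 over all genes. All 6 genes of the caudal and ParaHox list, which act on or resemble Hox genes in the embryo, were too low to test.

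Retinoic acid is the classical inducer of anterior Hox genes. Of 13 genes of its pathway 10 were tested, and 6 of the 10 fell in females (20.6% of all genes did) and 6 of the 10 in males (21.8% of all genes), where 1 rose, with medians of -1.32 and -1.24 beside 0.05 and 0.01 over all genes. Aldh1a3, which makes retinoic acid, had 18.1 to 31.3 CPM in female controls, 3.23 to 6.28 CPM in female GOF, 54.6 to 65.5 CPM in male controls and 4.51 to 6.23 CPM in male GOF. Its changes were -2.5 ± 0.214 and -3.43 ± 0.221 with adjusted p of 1.6e-06 and 1.98e-07. Stra6, the receptor that takes up retinol, changed by -2.63 ± 0.329 and -2.51 ± 0.322 with adjusted p of 3.04e-05 and 2.88e-05. Aldh1a1, which also makes retinoic acid, had 91.9, 121, 54.5 and 104 CPM in female controls and 13.1, 14.5, 7.68 and 12.7 CPM in female GOF, with 43.3, 61.9, 58.2 and 108 CPM in male controls and 1180, 28.2, 549.4 and 886 CPM in male GOF. The female groups did not overlap; of the male GOF libraries 3 stood far above the controls and male GOF 2 below every control. Aldh1a1 fell in females by 2.95 ± 0.717 (adjusted p = 0.00509) and rose in males by 3.29 ± 0.718 (adjusted p = 0.00264), and its interaction of 6.23 ± 1.01 passed (adjusted p = 0.00455).

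Genes that flank the clusters were counted in the same fit, where 39.6% of all genes tested were called in females and 36.9% in males. Beside cluster B, of 5 tested genes Ube2z and Cbx1 rose and Skap1 fell in females, and Skap1 fell in males. Beside cluster A, of 4 tested Hibadh and Snx10 fell in both sexes. Beside cluster C, of 6 tested Cbx5 and Hnrnpa1 rose in both sexes and Atp5g2 in females. Beside cluster D, of 5 tested Hnrnpa3 rose and Atp5g3 fell in both sexes, Mtx2 fell in females and Atf2 in males. With 1 library left out, the female call of Cbx1 was lost in 11 of 16 fits, the male call of Skap1 in 12 and that of Hnrnpa3 in 10. Without female GOF 4, 1 of the 3 female calls held beside cluster B, that of Ube2z, and 1 of the 3 beside cluster C, that of Hnrnpa1.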

How the data were processed

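Adrenal RNA of 16 mice was sequenced as paired reads of 150 bases from NEBNext Ultra libraries made where the RNA integrity number reached 7.0, per the labels' protocols. The submitters' processing notes name Bowtie2 2.2.3, TopHat2 2.0.12, HTSeq 0.6.1 and DESeq 1.18.0 without their roles; the genome build and strand setting are not given in the sources used here. The deposited counts are whole reads per gene without normalization, and the FPKM values were computed by the authors. Symbols and coordinates come from GENCODE M21 (GRCm38), which held 54723 of the 54838 identifiers; the gene length implied by count and FPKM matched its mean transcript length in 34 of 34 Hox genes with counts.

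Counts were tested with edgeR 4.0.16 in R 4.3.3 (filterByExpr, TMM factors, robust quasi-likelihood fit, 1 mean per group, 5 contrasts, Benjamini-Hochberg over 18214 genes, threshold 0.05), a procedure tested on simulated data. CPM uses TMM-scaled totals. The standard error is the absolute log2 change over the root of F. Levels of different genes were compared in FPKM. Every member called in a GOF or sex contrast with a group mean of at least 1 FPKM has its values printed. Alternatives included DESeq2 1.42.0, limma 3.58.1 on log2(FPKM + 1) or log2(FPKM + 0.1), voom, other factors and filters, and libraries left out; those for cluster sums and genes outside the Hox clusters were chosen after seeing the data. The members and lists were chosen with earlier results of these data known. Replicate numbers follow accession order and pair nothing. Some genes and sequences are not reported here. Intervals cover the spread between these mice, and a count of 0 covers counting error only.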

Additional observations from a re-analysis of the deposited data

Results flagged for a closer look

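A sample far from the other 3 of its group was found 6 times in 92 groups of 4 examined, where chance gives about 1 in 20 (Dixon's criterion at 95%). Hoxa4 had 0.314 CPM in male GOF 2, against 0.557 to 0.604 CPM in the others. Hoxa6 had 2.41 CPM in male control 3, against 1.66 to 1.76 CPM, and 1.06 CPM in male GOF 4, against 2.43 to 2.5 CPM. Hoxa9 had 0.527 CPM in male control 2, the library with liver transcripts, against 0.954 to 1.02 CPM. Hoxc4 had 10.2 CPM in male control 1, against 15.2 to 16.1 CPM. Hoxd9 had 8.38 CPM in female control 1, the library with kidney transcripts, against 3.70 to 4.28 CPM.

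The GOF change differed between the sexes by a test of the interaction for Hoxb4, by 0.74 on the log2 scale, and for Hoxb5, by 0.58. Neither passed without female control 1 and male control 2 (adjusted p of 0.0510 and 0.0964), and that of Hoxb5 was lost in 13 of 16 fits with 1 library left out.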

How the results depend on the processing

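No call of a Hox gene changed direction under any alternative. Of 37 calls, 16 held in every alternative fit and 21 were lost in at least 1. In females the count of 11 became 6 with female controls 1 and 3 and male control 2 left out and 3 with an absolute log2 change of at least 1, which left 4 in males. The 4 calls between control sexes became 8 with voom, 2 with a covariate for animal number range, 2 without female control 1 and male control 2, 2 without female control 3 as well, and 0 at a change of at least 1. The 7 calls in GOF became 4 without a filter, 4 with limma without a filter, 0 with the animal number range, 0 at a change of at least 1, and 3 to 8 with 1 library left out. The 2 interactions became 1 without a filter, 1 with limma on log2(FPKM + 1), 0 with limma without a filter, 1 with voom, 0 without female control 1 and male control 2, 0 without female control 3 as well, 0 at a change of at least 1, and 1 to 2 with 1 library left out. The cause was not tested.

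Of all calls in females 48% were higher, and 60.7% with limma on log2(FPKM + 1); in males 41.1%, 61.3% with limma and 51.2% with upper-quartile factors. That limma fit put the median of all genes at 0.10 in both sexes, beside 0.05 and 0.01.  No paired analysis was possible because replicate numbers follow accession order and the labels carry none.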
